A study of Fragaria hybrid cultivar with 9 samples.

Results

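Petals of the pink-flowered strawberry 'Sijihong' were sequenced for small RNAs at 3 flower stages: young bud (PF_L), coloration beginning (PF_Z) and big bud (PF_D). The miRNAs that stood apart at PF_Z from both flanking stages are described here. Each miRNA was given 1 contrast, the PF_Z mean minus the average of the PF_L and PF_D means on log2(value + 1), so that a positive contrast is a peak and a negative contrast a dip at the onset of color. The deposited table held 1876 lines, of which 173 repeated another line in full, and the remaining names stood for 1660 distinct sequences. Of these, 1511 had a value above 0 in at least 3 of the 9 libraries and were tested. The other 149 were not tested.

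The cultivar is a hybrid of Fragaria and Potentilla, and its plants were grown in open ground. All 3 groups were untreated petals of this 1 cultivar, and their labels differed only in flower stage, with 3 biological replicates each. The ages of the buds, and whether replicates came from separate plants, are not given in the sources used here, so the p-values measure the spread between these libraries. The values are normalized reads as deposited, and 1 read was worth 0.713 to 1.27 normalized reads in a library.

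Plant miRNAs are short RNAs, mostly of 21 or 22 nucleotides, that guide the cleavage or the silencing of messenger RNAs with a nearly complementary site. Flower color in strawberry comes from anthocyanins, whose enzymes are switched on by complexes of MYB, bHLH and WD40 proteins. The families miR828 and miR858 target MYB messages, miR156 targets SPL transcription factors that act on the same complexes in Arabidopsis, and other conserved families act on auxin signaling, petal growth and nutrient uptake.

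The sequences on which the comparison turned are printed first, in the DNA alphabet of the table, 5′ to 3′, with bases 2 to 8 (the seed, the part that pairs first with a target) in capitals. In the names, MIR with p5 or p3 marks a read from an arm of a database precursor, and a name that begins with PC marks a predicted miRNA without a database entry. Name endings describe how a read departs from its database entry: L or R for a longer or shorter end, and ss for substituted bases. No genome was used here, so no positions are given. The first set holds the 4 sequences that passed the test of the contrast.

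ppe-miR5225-5p: tCTGTCGTaggagagatggcgc
mdm-MIR858-p3: gTTCATTTgacaagggtttgca
mdm-miR393g: aTCATGCTatccctttggatt
mdm-MIR166e-p5_1ss18GA: aATGTTGTctggttcgaaatc

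None of these 4 shared its seed with any other listed sequence. The second set holds 5 sequences of the MYB regulators miR828 and miR858, whose PF_Z mean was their highest. They were picked from the 15 MYB-regulator sequences with that pattern because these families are tied to anthocyanin genes.

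mdm-miR828a: tCTTGCTCaaatgagtattcca
aly-miR828-3p_1ss5GA: aGATACTCatttgagcaagcaa
ath-MIR858b-p5: tTCGTTGTctgttcgaccttg
mdm-miR858: tTCGTTGTctgttcgacctga
mdm-miR858_L-1R+1_2ss20GT21AG: tCGTTGTCtgttcgaccttga

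The pair of miR828 sequences was complementary at 17 of 20 aligned bases, as the arms of 1 hairpin are. The sequence of ath-MIR858b-p5 is also listed as mdm-miR858_2ss20GT21AG and matched mdm-miR858 at 19 of 21 bases, and the remaining one is the same run of bases started 1 base later, with 20 of 20 overlapping bases identical. These miR858 forms are near-identical, so reads of 1 may have been split between names. The third set holds the abundant sequences whose 3 PF_Z libraries lay all above or all below the 6 flanking libraries, the peaks first and the dips after them.

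PC-5p-3412_820: tTCATCAGattccaattcaaa
PC-3p-17706_210: cAATACCAatcatcccagtaat
PC-5p-12187_284: cTAGGATGattggtattggaaa
PC-3p-11499_298: gGGTGGTTggattatttgaag
rco-MIR162-p5: gGAGGCAGcggttcatcgatc
mdm-MIR171f-p5: tATTGGTCcggttcaataaga

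PC-5p-12187_284 and PC-3p-17706_210 were complementary at 17 of 18 aligned bases. No other listed sequence shared the seed of any of the 4 predicted ones.

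Few miRNAs passed the test at the onset of color. With limma and Benjamini-Hochberg adjustment over the 1511 sequences, the contrast called 4 at an adjusted p under 0.05, which is 0.265% of those tested. Of these, 1 was higher at PF_Z (0.0662%) and 3 were lower (0.199%). The adjusted p of the 4 was 0.0342, 0.0342, 0.0363 and 0.0493, and the next sequence had 0.167. At an unadjusted p under 0.05 there were 133 sequences (8.8%), 54 of them higher at PF_Z (3.57%) and 79 lower (5.23%). When PF_Z had to differ from PF_L and from PF_D in the same direction, each by its own limma test, no sequence passed after adjustment, and 16 (1.06%) passed at an unadjusted p under 0.05, 6 higher at PF_Z (0.397%) and 10 lower (0.662%).

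The same fit called 238 sequences (15.8%) between PF_D and PF_L. The step between PF_Z and PF_L held 17 calls (1.13%), 8 higher at PF_Z (0.529%) and 9 lower (0.596%). PF_Z against PF_D gave 47 (3.11%), 12 higher at PF_Z (0.794%) and 35 lower (2.32%). Of the sequences called at either step, 5 were called at both, and in each of them PF_Z lay between the flanking stages.

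**Figure D1:**
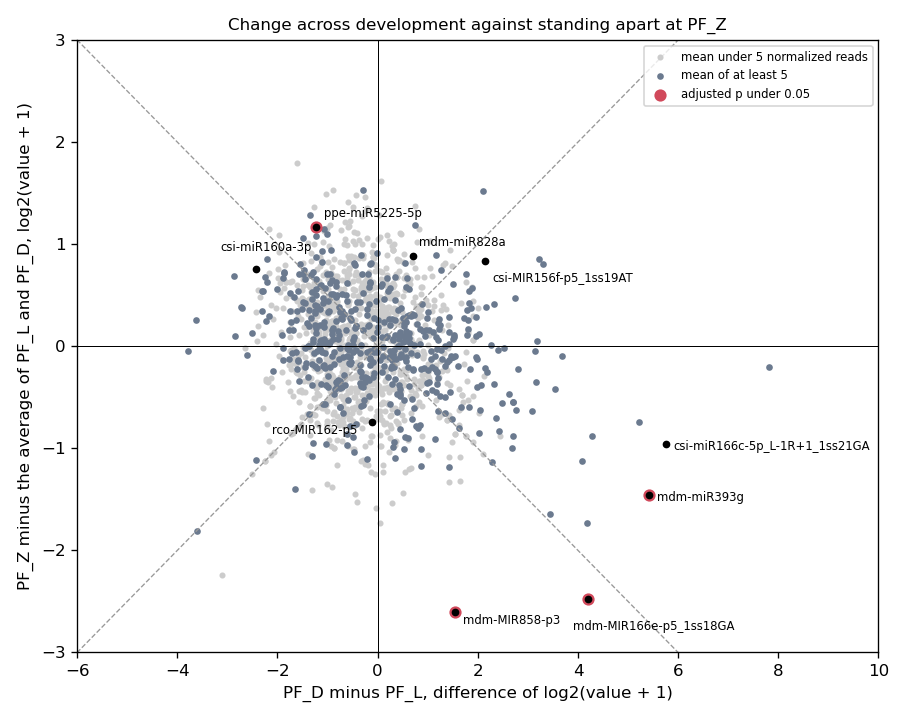
The contrast at PF_Z (vertical axis, log2(value + 1)) against the difference between PF_D and PF_L (horizontal axis, same scale), 1 point for each of the 1511 tested sequences. Between the dashed lines to the left and right of the center, PF_Z lies between the flanking means, and above or below both lines it lies outside them. Of the 4 called sequences (red), mdm-miR393g lies between the lines. ppe-miR5225-5p, mdm-MIR858-p3 and mdm-MIR166e-p5_1ss18GA lie outside, the last of them close to the lower line.

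The called peak was ppe-miR5225-5p, named after a database entry of peach. It had 818, 466 and 508 normalized reads in the PF_L libraries, 879, 933 and 741 in the PF_Z libraries and 326, 182 and 251 in the PF_D libraries. All 3 PF_Z libraries were above every PF_D library, but the first PF_L library lay above 1 PF_Z library. The contrast was 1.16 ± 0.24 (SE) on the log2 scale, with a limma adjusted p of 0.0493. PF_Z was 1.78 higher than PF_D (adjusted p = 0.00063) and 0.55 higher than PF_L (adjusted p = 0.383). The call depended on the library set: the adjusted p was 0.0367 without the first PF_L library and 0.022 without the first PF_D library, and 0.0727 to 0.34 when any other library was left out. It was also lost with a pseudocount of 0.5 (adjusted p = 0.0773) or 5 (0.103), without the filter on low values (0.0505), with a median of ratios (0.0605), scaling to valid reads (0.0937), a constant prior (0.293), every listed name tested (0.0522) or the flanking stages pooled (0.968). Pooling counts the difference between PF_L and PF_D as spread, which works against any sequence that changed between them.

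The called sequence that was absent at color onset was mdm-MIR858-p3, a read from the 3′ side of an apple miR858 precursor. It had 1.76, 2.14 and 4.12 normalized reads in the PF_L libraries, 0 in all 3 PF_Z libraries and 14, 6.77 and 8.53 in the PF_D libraries. It was the only one of the 4 whose PF_Z libraries all lay outside the range of the other 6. These values stand for 2 to 5 reads in a PF_L library and 6 to 11 in a PF_D library. A count of 0 allows up to 3 reads in a library, or 3.23 normalized reads at PF_Z, so PF_D was at least 3.03-fold higher than PF_Z at this depth, and PF_L stood under that limit on average. Such limits cover counting error only. The fitted contrast was -2.60 ± 0.48 (SE; limma adjusted p = 0.0342), a size that depends on the pseudocount, and it was not past the threshold without any 1 of 7 libraries (adjusted p 0.055 to 0.174). The exceptions were the first PF_L library (0.0367) and the first PF_D library (0.0309). The call was also lost with a pseudocount of 5 (adjusted p = 0.125), equal library totals (0.0504) and pooled flanking stages (0.815).

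The remaining called dips went with steep gains in the big bud. mdm-miR393g carries the name of a family that targets the TIR1 and AFB auxin receptors. It was complementary to mdm-miR393a_1ss22TC of that family at 15 of 19 aligned bases, as an opposite arm is, and did not share its seed. mdm-miR393g had 26.5, 25 and 25.6 normalized reads at PF_L, 67.4, 62.1 and 58.8 at PF_Z and 661, 1518 and 1490 at PF_D. PF_Z lay above every PF_L library and below every PF_D library, so its contrast of -1.46 ± 0.27 (SE; limma adjusted p = 0.0342) describes a curve that bends upward after PF_Z and not a low point. Its adjusted p was 0.0367 without the first PF_L library, 0.0381 without the first PF_Z library and 0.00149 without the first PF_D library. It was 0.0515 to 0.178 without any other library, 0.0792 with equal library totals, 0.277 with a constant prior and 0.968 with the flanking stages pooled. The pooled run counts the steep rise from PF_L to PF_D as spread.

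mdm-MIR166e-p5_1ss18GA, from the 5′ side of a precursor of miR166, which targets HD-ZIP III transcription factors, had 0.882, 2.85 and 1.65 normalized reads at PF_L, 0, 3.27 and 1.05 at PF_Z and 43.3, 41.8 and 61.8 at PF_D. PF_L and PF_Z overlapped, with a difference of -0.38 (adjusted p = 0.801), and PF_D lay far above both. The contrast was -2.48 ± 0.48 (SE; limma adjusted p = 0.0363). It kept its call without the first PF_L library (0.0367), the second PF_Z library (0.0152) or the first PF_D library (0.0324), and had an adjusted p of 0.0569 to 0.178 without any other. The adjusted p was 0.0828 with a pseudocount of 0.5, 0.0792 with equal library totals, 0.166 with a constant prior and 0.968 with the flanking stages pooled.

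**Figure D2:**
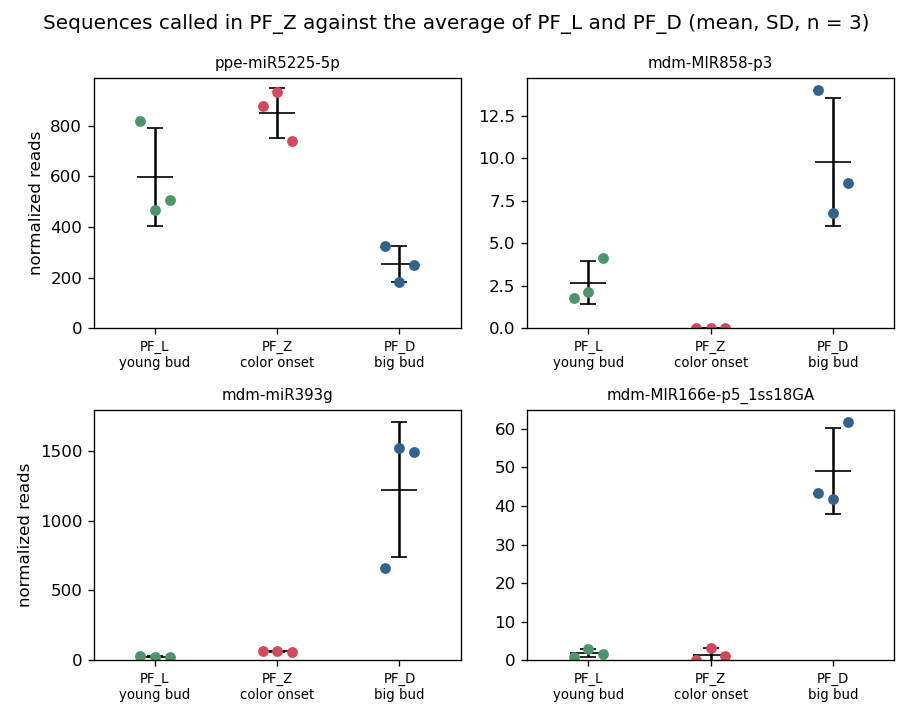
Normalized reads of the 4 called sequences in each library at PF_L, PF_Z and PF_D, with the mean (dash) and SD (n = 3). The PF_Z libraries of ppe-miR5225-5p (741 to 933) overlap PF_L, those of mdm-MIR858-p3 are at 0, and the other panels are dominated by PF_D.

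The main miR828 and miR858 sequences had their highest means at color onset, without a call. mdm-miR828a had 365, 655 and 307 normalized reads at PF_L, 503, 1584 and 1196 at PF_Z and 734, 693 and 622 at PF_D. PF_Z libraries 2 and 3 were above all 6 flanking libraries, but library 1 lay within them. The contrast was 0.88 ± 0.31 (SE; limma adjusted p = 0.421), and without the first PF_Z library it was 1.36 with an adjusted p of 0.0381. The opposite arm aly-miR828-3p_1ss5GA had 124, 168 and 96.5 normalized reads at PF_L, 165, 178 and 214 at PF_Z and 117, 113 and 112 at PF_D, and here 1 PF_L library lay among those of PF_Z (contrast 0.62 ± 0.23 SE, adjusted p = 0.441).

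ath-MIR858b-p5, the most abundant miR858 sequence, had 797, 1360 and 1120 normalized reads at PF_L, 2030, 2016 and 1439 at PF_Z and 1805, 883 and 1118 at PF_D. Its first PF_D library was above PF_Z library 3, and the contrast was 0.67 ± 0.24 (SE; limma adjusted p = 0.427). mdm-miR858 averaged 193 ± 41.0 at PF_L, 301 ± 71.0 at PF_Z and 248 ± 59.6 at PF_D (SD, n = 3 libraries), with a contrast of 0.46 ± 0.24 (SE; adjusted p = 0.627). The form mdm-miR858_L-1R+1_2ss20GT21AG had a contrast of 0.61 ± 0.25 (SE; adjusted p = 0.474). The scarce mdm-MIR858-p3 was at 0 at PF_Z, while the PF_Z means of the most abundant sequences of its named family were their highest. Unlike the miR828 pair, mdm-MIR858-p3 and ath-MIR858b-p5 gave no complementary stretch in an ungapped alignment. mdm-MIR858-p3 also shared its seed with no other listed sequence, so it is tied to miR858 here by its name.

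Summed over its 5 sequences, the miR828 family averaged 574 ± 221 normalized reads at PF_L, 1285 ± 562 at PF_Z and 799 ± 58.5 at PF_D (SD, n = 3 libraries). Its contrast was 0.84 ± 0.31 (SE; limma adjusted p = 0.233 over 139 families). The 9 sequences of the miR858 family summed to 1461 ± 371, 2401 ± 445 and 1711 ± 594 at the 3 stages in the same order, with a contrast of 0.63 ± 0.25 (SE; adjusted p = 0.276). In both families the highest PF_L or PF_D library lay above the lowest PF_Z library.

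**Figure D3:**
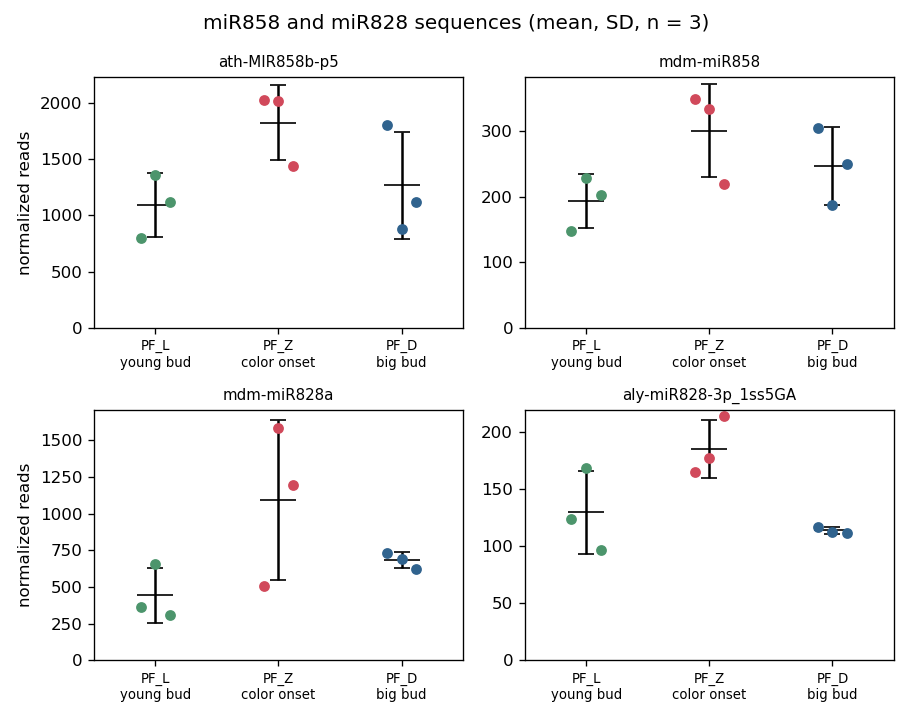
Normalized reads of miR858 (top) and miR828 (bottom) sequences in each library at PF_L, PF_Z and PF_D, with the mean (dash) and SD (n = 3). The PF_Z mean is the highest in each panel, while at least 1 PF_Z library lies within the range of the flanking stages.

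Taken as all regulators of MYB messages, with miR159 and miR319 added, 1 of 51 tested sequences was called, mdm-MIR858-p3, listed by its name. PF_Z had the highest mean in 15, the lowest in 14 and a value between the flanking stages in 22, and the median contrast was 0.03, beside 0.02 over all tested sequences. mdm-miR159d, the most abundant sequence of the list and of a family that targets GAMYB genes, averaged 222889 ± 31309 normalized reads at PF_L, 218659 ± 47469 at PF_Z and 277231 ± 24820 at PF_D (SD, n = 3 libraries). Its contrast was -0.20 (limma adjusted p = 0.818). csi-miR159a-5p_1ss19AT averaged 3135 ± 137, 2425 ± 642 and 5382 ± 1108 in stage order, and its contrast of -0.78 missed the threshold (adjusted p = 0.214), although it passed without the first PF_Z library (-0.99, adjusted p = 0.0381).

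PF_Z libraries that did not overlap the other 6 were rare. They lay above all flanking libraries in 17 sequences (1.13% of those tested) and below them in 15 (0.993%). Of the 84 splits of 9 libraries into 3 and 6, 1 puts the 3 above all others and 1 puts them below. Both counts were near that share, so they show no excess of peaks or dips. Most of the non-overlapping sequences were scarce: in 12 of the 17 and 9 of the 15, the highest stage mean was under 10 normalized reads. Predicted sequences made up 10 of the 17 and 8 of the 15. Among the 190 sequences with a highest stage mean of at least 50, 3 lay above (1.58%) and 3 below (1.58%), also near that share.

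The abundant peaks without overlap were small and all predicted. PC-5p-3412_820 had 587, 651 and 687 normalized reads at PF_L, 985, 941 and 913 at PF_Z and 897, 801 and 859 at PF_D. The lowest PF_Z library was close to the highest PF_D library, and the contrast of 0.36 ± 0.18 (SE) had a limma adjusted p of 0.61. PC-3p-17706_210 averaged 325 ± 21.5, 402 ± 8.59 and 356 ± 31.0 in stage order (SD, n = 3 libraries), with a contrast of 0.24 (adjusted p = 0.715). Its apparent partner strand PC-5p-12187_284 averaged 191 ± 10.8, 218 ± 18.5 and 192 ± 14.5, with a contrast of 0.19 (adjusted p = 0.818).

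The abundant dips without overlap were deeper. PC-3p-11499_298 had 40.6, 39.2 and 47.0 normalized reads at PF_L, 19.6, 26.1 and 24.1 at PF_Z and 43.3, 66.6 and 49.0 at PF_D, a contrast of -0.99 ± 0.27 (SE; limma adjusted p = 0.214). rco-MIR162-p5 had 94.4, 109 and 115 at PF_L, 72.8, 44.7 and 69.3 at PF_Z and 99.4, 102 and 94.9 at PF_D, a contrast of -0.74 ± 0.24 (SE; adjusted p = 0.367). It is the opposite arm of miR162, which targets DICER-LIKE 1, and the main arm rco-miR162 averaged 4677 ± 619, 4164 ± 334 and 4022 ± 342 in stage order, with a contrast of -0.06 (adjusted p = 0.947). The dip was thus seen in the scarcer strand, while the libraries of the main strand overlapped between stages.

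mdm-MIR171f-p5, from the opposite arm of miR171, a regulator of GRAS transcription factors, averaged 131 ± 5.81 normalized reads at PF_L, 96.0 ± 10.7 at PF_Z and 179 ± 67.9 at PF_D (SD, n = 3 libraries), with a contrast of -0.64 (limma adjusted p = 0.444). A shifted relative from the same side, ppe-MIR171e-p5, had 16.8, 15 and 13.2 at PF_L, 8.70, 5.45 and 12.6 at PF_Z and 31.9, 19.2 and 35.2 at PF_D, also without overlap (-1.18 ± 0.34 SE, adjusted p = 0.248). Other relatives went the other way. The only other tested sequence with the seed of mdm-MIR171f-p5 had a contrast above 0, as did the only other one with the seed of ppe-MIR171e-p5. The more abundant osa-miR171c-5p_1ss1GA, named for the same side, fell across the stages with a contrast of 0.54 (limma adjusted p = 0.441). ppe-miR171a, the most abundant member of the family, rose without a low point at PF_Z: it averaged 84305 ± 1481, 128733 ± 39552 and 192001 ± 9204 in stage order.

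**Figure D4:**
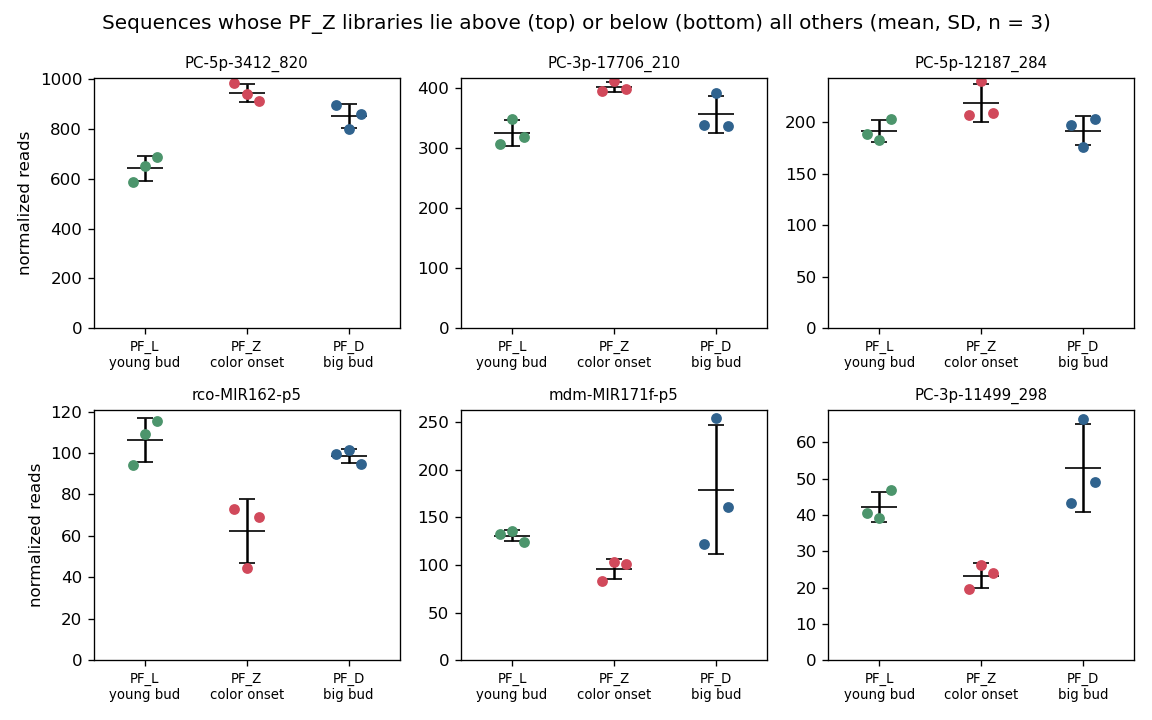
Normalized reads in each library of the 6 sequences with a highest stage mean of at least 50 whose PF_Z libraries lie above (top) or below (bottom) all 6 flanking libraries, with the mean (dash) and SD (n = 3). Contrasts are 0.19 to 0.36 in the top panels and -0.99 to -0.64 in the bottom panels, and none was called.

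Scarcer sequences gave the widest separations on the log scale. PC-3p-1043691_7, of 24 nucleotides, had 2.65, 2.5 and 4.12 normalized reads at PF_L, 7.61, 10.9 and 10.5 at PF_Z and 1.91, 1.13 and 4.80 at PF_D (contrast 1.53, limma adjusted p = 0.248). PC-5p-226653_25, also of 24 nucleotides, showed the opposite pattern, with 7.50, 3.92 and 4.54 at PF_L, 0.544, 1.09 and 1.57 at PF_Z and 5.10, 4.51 and 5.33 at PF_D (-1.58, adjusted p = 0.248). The highest of these values is near 10 reads, and no other sequence without overlap than mdm-MIR858-p3 was called. bra-miR1885b, a miRNA known from Brassica as a regulator of immune receptors, had 9.70, 15 and 14.8 normalized reads at PF_L, 0 in every PF_Z library and 0, 0 and 3.20 at PF_D. It was thus already at 0 at color onset and stayed near 0 afterward (contrast -2.25 ± 0.55 SE, adjusted p = 0.184). In all, 28 of the 1511 tested sequences were above 0 in every PF_L library and at 0 in every PF_Z library. Of these, 20 had at most 1 PF_D library above 0. The reverse pattern was not counted. A read was worth 0.713 to 0.882 normalized reads at PF_L and 1.05 to 1.09 at PF_Z, so scarce sequences were easier to detect at PF_L. The part of this difference in the zeros was not tested.

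PF_Z was more often between the flanking stages the more abundant a sequence was. Its mean was the highest in 378 of the 1511 sequences (25%), the lowest in 352 (23.3%) and between in 781 (51.7%). Among the 190 abundant sequences it was between in 135 (71.1%), the highest in 22 and the lowest in 33. The replicates were also less tight there: over the 501 sequences with a mean of at least 5, the median SD of log2(value + 1) within a stage was 0.34 at PF_L, 0.47 at PF_Z and 0.40 at PF_D.

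The contrast also shows whether more of a developmental change, on the log2 scale, came before or after color onset. Of the 113 sequences (7.48%) that were higher at PF_D than at PF_L, 71 had a contrast below 0 (more of the rise after PF_Z) and 42 above 0, and at an unadjusted p under 0.05 there were 18 lower and 3 higher, which is 15.9% and 2.65% of them beside 5.23% and 3.57% of all tested sequences. Of the 125 (8.27%) that were lower at PF_D, 69 were above 0 and 56 below, with 9 higher (7.2%) and 14 lower (11.2%) at that level. This balance turned with abundance: of the 69 with a mean of at least 5, 46 were above 0 and 23 below, with 7 higher (10.1%) and 3 lower (4.35%). All of these comparisons share libraries, and the counts are a description. They also rest on the deposited scaling. The median contrast of the 113 was -0.13. Equal library totals moved the median of the 501 sequences with a mean of at least 5 to 0.21, against 0.01 as deposited. The counts were not redone with that scaling.

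Late risers included the auxin regulator mdm-miR393a_1ss22TC, with 722, 794 and 589 normalized reads at PF_L, 1713, 1924 and 1401 at PF_Z and 8556, 15415 and 18866 at PF_D. PF_Z was 1.26 higher than PF_L (limma adjusted p = 0.0228) and differed from PF_D by -3.02 (adjusted p = 1.64e-06), and the contrast was -0.88 ± 0.24 (SE; adjusted p = 0.214). csi-miR166c-5p_L-1R+1_1ss21GA, which overlaps the called mdm-MIR166e-p5_1ss18GA at 19 of 19 bases with a start 2 bases earlier, averaged 28.9 ± 2.70, 111 ± 6.97 and 1651 ± 464 in stage order (SD, n = 3 libraries), with a contrast of -0.96 (adjusted p = 0.167). The pair overlaps, so they are not separate evidence of 1 arm's behavior. The first PF_D library was the lowest of its stage for csi-miR166c-5p_L-1R+1_1ss21GA and mdm-miR393a_1ss22TC. Without it both were called by limma, at -1.08 (adjusted p = 0.0301) and -1.05 (adjusted p = 0.0288).

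mdm-miR477b_2ss20GT22CG had 1659, 1208 and 1613 normalized reads at PF_L, 1346, 1087 and 1098 at PF_Z and 1818, 4498 and 4272 at PF_D. PF_L and PF_Z overlapped and the first PF_D library lay close to PF_L, with a contrast of -0.91 ± 0.26 (SE; limma adjusted p = 0.248). Without that PF_D library the sequence was called (-1.12, adjusted p = 0.022).

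Early risers included csi-MIR156f-p5_1ss19AT, of the family that targets SPL genes, with 594, 768 and 559 normalized reads at PF_L, 1484, 3253 and 2738 at PF_Z and 3247, 2385 and 2794 at PF_D. PF_Z libraries 2 and 3 had already reached the level of PF_D. PF_Z was 1.90 higher than PF_L (limma adjusted p = 0.000971), and the contrast was 0.83 ± 0.24 (SE; adjusted p = 0.248). Without the first PF_Z library it was 1.17, with an adjusted p of 0.038. The miR156 total of 28 sequences averaged 1519 ± 222, 3655 ± 667 and 4685 ± 746 in stage order (SD, n = 3 libraries; contrast 0.45, adjusted p = 0.33 over families).

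ppe-miR172a-5p_3ss2TG9AT21GA, from the opposite arm of miR172, which targets AP2-type genes, averaged 11.4 ± 8.04 normalized reads at PF_L, 60.0 ± 14.9 at PF_Z and 107 ± 11.0 at PF_D (contrast 0.80, limma adjusted p = 0.485). mdm-miR396a_1ss20AT, also listed as mdm-miR396b, a regulator of growth-regulating factors, averaged 7298 ± 1644, 26974 ± 9774 and 48324 ± 2361 in stage order. Its contrast was 0.47 (adjusted p = 0.589). More of its rise came before PF_Z on the log2 scale, but in normalized reads slightly more came after.

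Late falls were seen in csi-miR160a-3p, the passenger arm of a regulator of auxin response factors, with 1232, 1270 and 1039 normalized reads at PF_L, 950, 824 and 806 at PF_Z and 255, 173 and 233 at PF_D. PF_Z was 1.98 higher than PF_D (limma adjusted p = 3.91e-05) and differed from PF_L by -0.45 (adjusted p = 0.383), for a contrast of 0.76 ± 0.20 (SE; adjusted p = 0.214). The main arm mdm-miR160a averaged 10307 ± 316, 6828 ± 1422 and 5671 ± 789 in stage order (contrast -0.18 ± 0.19 SE, adjusted p = 0.818, and 0.021 with equal library totals). Neither of its steps at PF_Z was called, and the difference between the arms was not tested. osa-miR171c-5p_1ss1GA averaged 5651 ± 1567, 3597 ± 277 and 1113 ± 157 (contrast 0.54, adjusted p = 0.441). mdm-miR390a, which starts the phased siRNAs against auxin response factors, averaged 20189 ± 1641, 10308 ± 1976 and 3190 ± 1037, with a contrast of 0.37 (adjusted p = 0.645). On the log2 scale its PF_Z differed by -0.98 from PF_L and by 1.73 from PF_D. In normalized reads, however, more of its fall came before PF_Z.

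**Figure D5:**
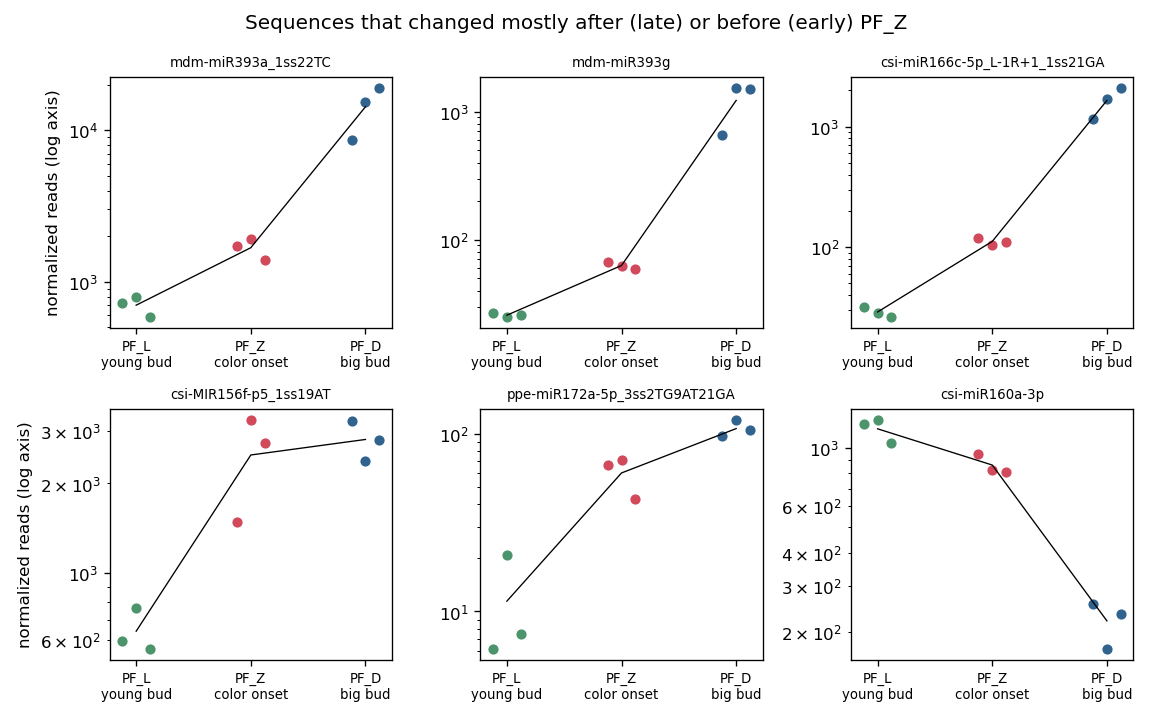
Normalized reads (log axis) of 6 sequences that changed between PF_L and PF_D, in each library, with a line through the stage means. mdm-miR393a_1ss22TC, mdm-miR393g and csi-miR166c-5p_L-1R+1_1ss21GA have PF_Z means of 1680, 62.7 and 111, nearer to PF_L, csi-MIR156f-p5_1ss19AT and ppe-miR172a-5p_3ss2TG9AT21GA are nearer to PF_D at PF_Z, and csi-miR160a-3p drops mainly after PF_Z.

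A pair of miR399 sequences with a shared seed, picked for their opposite patterns, is given as a description. mdm-miR399a_1ss1TG, of a family that targets the phosphate regulator PHO2, had 6.17, 4.99 and 5.77 normalized reads at PF_L, 9.24, 9.26 and 8.40 at PF_Z and 2.55, 1.69 and 2.66 at PF_D, all PF_Z libraries above the rest (contrast 1.10, limma adjusted p = 0.421). csi-miR399a-3p_1ss20GA, with the same seed, had 30.9, 15.7 and 19.8 at PF_L, 9.78, 15.2 and 12.6 at PF_Z and 22.9, 33.9 and 39.4 at PF_D, all PF_Z libraries below the rest (-1.01, adjusted p = 0.367). Their difference in contrast was not tested, and each rests on few reads. Their sequences and that of the most abundant miR399 were as follows, to show where they differ outside the seed.

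mdm-miR399a_1ss1TG: gGCCAAAGgagaattgccctg
csi-miR399a-3p_1ss20GA: tGCCAAAGgagatttgcccag
mdm-miR399i: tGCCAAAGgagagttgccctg

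mdm-miR399i averaged 16.6 ± 4.51, 32.8 ± 17.4 and 40.3 ± 9.85 normalized reads in stage order (contrast 0.20, limma adjusted p = 0.893). In miR156, ptc-MIR156k-p5_1ss19AT had 14.1, 24.3 and 28 normalized reads at PF_L, 72.8, 30.5 and 30.4 at PF_Z and 22.9, 14.1 and 29.3 at PF_D. The separation of PF_Z libraries 2 and 3 from the highest flanking library was about 1 read, and the contrast was 0.91 (adjusted p = 0.444). ppe-miR156c, also listed as mdm-miR156a and with the same seed, averaged 130 ± 21.8, 287 ± 101 and 534 ± 216 and so had no peak at PF_Z.

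By family total, 0 of 139 families passed the limma test of the contrast and 19 (13.7%) had an unadjusted p under 0.05. Against both flanking stages, 0 passed after adjustment and 1 (0.719%) at an unadjusted p under 0.05. The lowest adjusted p was 0.0523, in miR1885, with its single sequence bra-miR1885b, and in miR5225. The miR5225 total was almost wholly ppe-miR5225-5p and averaged 607 ± 196, 866 ± 101 and 262 ± 77.6 in stage order (contrast 1.15). The miR393 total of 8 sequences averaged 734 ± 106, 1758 ± 266 and 15584 ± 5743, with a contrast of -0.91 (adjusted p = 0.096). All 3 PF_Z libraries lay above the other 6 in 3 families (2.16%), miR6280, miR7512 and miR6478, and below them in 0. The first pair averaged 1.43 and 3.22 normalized reads at PF_Z, or a few reads, and miR6478, whose reads resemble tRNA, averaged 31.8 ± 4.46, 48.2 ± 9.76 and 33.4 ± 4.59 (contrast 0.54, adjusted p = 0.43).

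The families were also grouped by their known targets, opposite arms included, with the calls of the contrast counted beside the 0.265% of all sequences. In auxin signaling (miR160, miR167, miR390, miR393 and miR394), 1 of 49 was called, mdm-miR393g, an apparent opposite arm. In that list PF_Z was the highest in 10 and the lowest in 4, and the median contrast was -0.08. In growth and organ boundaries (miR164, miR166, miR171 and miR396), 1 of 77 was called, mdm-MIR166e-p5_1ss18GA, with a median of -0.00027. Phase change (miR156, miR157, miR172 and miR535) had 0 of 48 and a median of -0.06, and the nutrient families (miR169, miR395, miR397, miR398, miR399, miR408 and miR827) 0 of 65 and -0.22.

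The silencing machinery list (miR162, miR168 and miR403, which target DICER-LIKE 1, ARGONAUTE 1 and ARGONAUTE 2) had 0 of 11 called. Its contrast was below 0 in 10 of 11, with a median of -0.36 beside 0.02 over all sequences. These 11 are forms of 3 families and not separate replicates. The size also depends on scaling: equal library totals moved the median of the 501 sequences with a mean of at least 5 to 0.21 and turned rco-miR162 to 0.14. The most abundant sequence of the list, mdm-miR168a, had 21428, 12561 and 11868 normalized reads at PF_L, 16614, 11347 and 9832 at PF_Z and 20564, 20155 and 22967 at PF_D. The first PF_Z library lay within PF_L, and the contrast was -0.52 ± 0.23 (SE; limma adjusted p = 0.495). The regulators of NLR immune receptors (miR482 and miR2118) had 0 of 50 called, with PF_Z lowest in 20 and a median of -0.18. gra-MIR482-p3_1ss20TG averaged 162102 ± 30328, 121781 ± 28603 and 125862 ± 11462 in stage order (contrast -0.24, adjusted p = 0.756).

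Lists that may mark other material were read in the same way. The anther list (miR2118 and miR2275, which start phased siRNAs in the anthers of some plants) shares its miR2118 sequences with the NLR list. It is therefore not a marker of anthers alone. This list had 0 of 18 called, a median contrast of -0.43, and summed levels of 98.1 to 250 normalized reads at PF_L, 105 to 135 at PF_Z and 153 to 166 at PF_D. The miR2275 part was 164 in the second PF_L library and 6.52 to 24.1 in the other 8. The list of families whose reads resemble tRNA or rRNA (miR1862, miR5077, miR6300, miR6478 and miR8175) had 0 of 47 called, with 36 above 0 and a median of 0.20, and summed to 1324 to 2174, 1068 to 1993 and 1115 to 1374 in stage order. Their part in the results was not tested.

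No length class passed the test between color onset and the flanking stages. The test takes PF_L and PF_D as 1 group, so a difference between them counts as spread. For 21, 22 and 24 nucleotides the PF_Z mean lay between the flanking means. The test therefore cannot decide whether PF_Z differed from either flank alone. Sequences of 21 nucleotides carried 70.8% ± 3.38 of the listed normalized reads at PF_L, 76.6% ± 2.51 at PF_Z and 79.3% ± 1.51 at PF_D (SD, n = 3 libraries; exact permutation test of 3 against 6 libraries, two-sided, p = 0.667). Sequences of 22 nucleotides carried 26.7% ± 3.43, 20.5% ± 2.33 and 18% ± 1.59 in stage order (exact permutation p = 0.667). The 5 length classes from 20 to 24 nucleotides had exact permutation p-values of 0.214 to 0.881, all 0.881 after adjustment, where 84 splits allow 0.0238 at the least. Counted per sequence, the 652 of 24 nucleotides had a median contrast of 0.11, with 371 above 0, and the 172 of 22 nucleotides -0.13, with 67 above 0. The 904 predicted sequences had a median contrast of 0.08 and the 607 known ones -0.04.

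Filtering losses moved with stage. The adapter and length filter removed 2.35% to 2.93% of the reads of a PF_L library, 22.7% to 33.8% of a PF_Z library and 40.8% to 45.2% of a PF_D library, so PF_Z was between its flanks here too. The listed sequences made up 6.54% to 8.71%, 6.79% to 13.5% and 15.4% to 16.0% of the valid reads in stage order. The part of these losses in the results was not tested.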

How the data were processed

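Small RNAs of 9 petal libraries, 3 per stage, were prepared with a TruSeq kit and sequenced on a HiSeq instrument. The authors' pipeline (ACGT101-miR) removed adapters, junk, other RNA families and repeats, kept reads of 18 to 25 nucleotides, and searched miRBase 22 and the genome of Fragaria vesca. The deposited values are a signal, reads normalized per library by the authors. Labels name Trizol and the paper CTAB for extraction, and the formula of the normalization is not given in the sources used here. Total and valid reads were taken from the study's supplement. The 9 libraries held 11771344 to 16954183 total reads. Within 0.01 read, 69.1% to 72.2% of the values above 0 were whole multiples of the value of 1 read, so whole reads were not recovered.

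Fully repeated lines were dropped, and each sequence was counted once. limma 3.58.1 (R 4.3.3) with a mean-dependent prior was fitted on log2(value + 1), a scale that understates changes of scarce sequences, with all 9 libraries in 3 groups. The threshold was a Benjamini-Hochberg adjusted p under 0.05, two-sided. For the test against both flanking stages, the larger of the 2 p-values was adjusted where both differences had 1 sign. Families are the number in the miRNA name, with distinct sequences summed. Length shares were tested by exact permutation (scipy 1.17.1), and numpy 2.4.6, pandas 2.3.3 and matplotlib 3.10.9 did the rest. The code was tested on simulated data. Among the tested sequences, 30 in 14 groups share all 9 values with another, and 818 average at most 3 reads.

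The text names every called sequence, non-overlapping ones with a highest stage mean of at least 50, the most abundant members of listed families, sequences the study names, and relatives by seed or overlap. Some that met this rule are not named. Those outside it were chosen after their values were seen: the scarce non-overlapping sequences, bra-miR1885b, the late and early movers, and family totals. The members, lists and rules were chosen with earlier results of these data known. The degradome and mRNA data were not analysed here.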

Additional observations from a re-analysis of the deposited data

How the results depend on the processing

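The 4 contrast calls were 2 with a pseudocount of 0.5 and 2 with one of 5, 1 with equal library totals (then 1 higher and none lower, against 1 higher and 3 lower as deposited), 1 with a constant prior, and 0 when the flanking stages were pooled as 1 group. The pooled run counts the difference between PF_L and PF_D as spread, which works against sequences that changed between them. The calls were 3 without the filter on low values, with a median of ratios, with scaling to valid reads and with every listed name tested, and in each of these runs the lost call was the only peak, ppe-miR5225-5p. Setting library totals equal moved the median contrast of the 501 sequences with a mean of at least 5 to 0.21, against 0.01 as deposited. It also turned rco-miR162 to 0.14, mdm-miR160a to 0.021 and ppe-miR171a to 0.17. Leaving out 1 library at a time gave 0 to 9 contrast calls: 9 without the first PF_D library, 4 without the first PF_L or first PF_Z library, 1 without the second PF_Z library and 0 without any other. The test against both flanking stages gave 0 in every run made.

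The family contrast calls were 2 with a pseudocount of 5, 2 with equal totals, 3 with a median of ratios, 4 with a constant prior and 0 to 5 when 1 library was left out. miR5225 and miR1885 passed with a pseudocount of 5 (adjusted p 0.0444 and 0.0336), equal totals (0.0253 each) and the median of ratios (0.0447 each). Leaving out 1 library at a time turned the direction of contrasts near 0: ppe-miR156c ranged over -0.12 to 0.42, mdm-miR399i over -0.16 to 0.68, ppe-miR171a over -0.26 to 0.14 and rco-miR162 over -0.11 to 0.0068. It also turned the differences at PF_Z in the share of 24 nucleotides (-0.206 to 0.13 percentage points) and the share of 23 nucleotides (-0.104 to 0.023). The cause was not tested.

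Same-numbered libraries of different stages correlated by -0.103 to 0.279 in their deviations. Libraries with different numbers were not compared, so these values cannot decide whether the numbers paired the samples. With the replicate number as a block, the contrast gave 4 calls, the same 4 as without it, and 0 families. Count-based tests of recovered reads were not run, because too few values were whole. With 818 of 1511 sequences at 3 reads or fewer on average, values of scarce miRNAs rest on few reads. Of the 1010 sequences with a mean under 5, 1 was called in the contrast, beside 3 of the 501 with a higher mean.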
